A study of Mus musculus with 13 samples.

Results

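The mouse Hox genes stand in 4 clusters, Hoxa, Hoxb, Hoxc and Hoxd, and are described here in flow-sorted bone marrow stem and progenitor cells of mice with and without the PML-RARA fusion gene. The members were taken by symbol from a list of 38 Hox genes. A gene was measured where at least 3 probe sets of the array were annotated to it alone, which held for 33 of the 38, among 15123 genes measured in all. Of those 33, 20 lay above the filter on low values and were tested, among 10586 genes tested. The 5 listed genes with no probe set of their own were Hoxa13, Hoxc11, Hoxd4, Hoxd8 and Hoxd12.

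There were 13 arrays in 5 groups, 1 mouse per array. The mice were of the strain labelled Bl/6 Taconic. The mutant, mCG-PR, carried PML-RARA in the murine Ctsg locus, written Ctg in the labels, so that the fusion is driven by the promoter of cathepsin G, an enzyme of early granulocytic cells; controls were wild-type (WT) littermates. KLS cells, a sort that by its name takes Kit-positive, lineage-negative, Sca-1-positive progenitors and stem cells, came from 4 WT mice (replicates 1 and 2 aged 13 weeks, replicates 3 and 4 aged 12 weeks), from 3 mCG-PR mice of 6 weeks and from 2 mCG-PR mice of 13 weeks. SLAM cells, a sort by SLAM-family surface proteins that enriches for long-term stem cells, came from 2 WT mice of 6 weeks and from 2 mCG-PR mice of 7 weeks. How the gates were set is not stated in the labels. Total RNA, 20 ng per mouse, was amplified and read on the Affymetrix Mouse Exon 1.0 ST array.

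Hox genes encode homeodomain transcription factors that give cells positional identity along the body axis, and blood-forming cells reuse part of the family. In marrow, Hoxa and Hoxb genes are known for high activity in stem cells and early progenitors, for falling activity as cells mature, and for sustained activity in several leukaemias, often beside the TALE cofactor Meis1. Trithorax-group proteins keep the clusters active, Polycomb-group proteins silence them, and retinoic acid, the ligand of the receptor fused in PML-RARA, is a classic inducer of the clusters in embryos.

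The promoters of 3 genes described below, Hoxa5, Hoxa6 and Hoxb4, are shown first, so that the values can be set beside the DNA in front of each gene. Of these 3, only Hoxa6 passed a comparison below with the settings used throughout. A link between motifs and values was not tested. Promoter sequences came from RefSeq (build GRCm38.p6) and were matched by symbol for 22 of the 38 genes; Hoxb5 was not among them. Each line gives the 250 bases before the annotated start on the gene's own strand. Capitals mark CCAAT, here read as ATTGG on the opposite strand, in Hoxa5 (chr6:52204588-52204837, minus strand) and Hoxa6 (chr6:52208673-52208922, minus strand). In Hoxb4 (chr11:96318017-96318266, plus strand) they mark AGGTCA, the core motif of retinoic acid receptors, here read as TGACCT.
Hoxa5: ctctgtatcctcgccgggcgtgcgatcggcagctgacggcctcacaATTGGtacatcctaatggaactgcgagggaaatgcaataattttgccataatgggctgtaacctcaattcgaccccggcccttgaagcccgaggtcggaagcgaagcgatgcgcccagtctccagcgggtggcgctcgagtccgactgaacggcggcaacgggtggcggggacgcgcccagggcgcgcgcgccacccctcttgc
Hoxa6: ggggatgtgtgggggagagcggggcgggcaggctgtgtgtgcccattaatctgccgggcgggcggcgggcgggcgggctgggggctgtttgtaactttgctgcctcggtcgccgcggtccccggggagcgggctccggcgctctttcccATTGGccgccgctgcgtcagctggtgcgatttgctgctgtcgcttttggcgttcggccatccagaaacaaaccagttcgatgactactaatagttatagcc
Hoxb4: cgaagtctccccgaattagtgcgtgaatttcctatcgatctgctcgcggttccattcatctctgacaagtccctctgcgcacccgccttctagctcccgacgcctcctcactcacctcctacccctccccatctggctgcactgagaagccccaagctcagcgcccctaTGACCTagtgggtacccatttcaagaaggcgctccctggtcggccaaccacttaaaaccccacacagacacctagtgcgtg
The capitals begin 204 bases before the start in Hoxa5, 101 in Hoxa6 and 81 in Hoxb4. These windows held 28, 24 and 14 CpG dinucleotides, against a median of 12.5 over the 24 Hox promoters and of 6 over all 32851 promoters.

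Motifs of 5 to 8 letters were searched on both strands, and none of them contains another. AGGTCA was present in 6 of the 22 matched Hox genes, namely Hoxb4, Hoxc4, Hoxd3, Hoxd4, Hoxd8 and Hoxd10, and in 14.0% of all promoters. CCAAT, the NF-Y motif, was present in 14 of the 22 and in 33.8% of all promoters. TTTATG, a Cdx-type motif, was present in 5 of the 22 and in 10.8% of all promoters. TGATTNAT, a composite of Pbx and Hox contacts, was present in Hoxa2 and Hoxd11 and in 2.82% of all promoters. A match is a description of letters in this window only.

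The labelled cell types were read against their defining markers first. Cd48, which the SLAM sort excludes, lay at mean log2 intensities of 5.13 and 4.25 in WT and mCG-PR SLAM cells and at 8.83 to 9.37 in the KLS groups. Slamf1, which the SLAM sort selects, lay at 7.58 and 6.42 in the SLAM groups and at 5.46 to 5.98 in the KLS groups. The 5 stem cell markers other than Hoxb5 averaged 7.97 to 8.55 on the SLAM arrays and 7.05 to 7.58 on the KLS arrays. Kit and Ly6a, the markers of the KLS sort, averaged 9.56 to 10.07 on the WT KLS arrays. On the mCG-PR KLS arrays they averaged 9.47 to 9.72 at 6 weeks and 9.04 and 9.37 at 13 weeks. Both were lower than in WT KLS cells at each age (medians -0.26 and -0.61), and neither passed the test. Array medians ran from 98.6 to 115.3 intensity units. Replicates correlated at 0.950 to 0.966 within the KLS groups, at 0.828 in WT SLAM and at 0.821 in mCG-PR SLAM (Pearson's r across genes, which are not independent replicates). The median SD of the Hox genes within groups was 0.24 in KLS and 0.41 in SLAM cells. Over all genes those medians were 0.22 and 0.33. All p-values measure the spread between individual mice. In these bulk samples, fewer cells of a type and less RNA per cell cannot be told apart.

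Signal differed by cluster (the plot of Hox signal on the 13 arrays). Above the filter, a mean log2 intensity of 6.0, lay 8 of 9 measured Hoxa genes, 9 of 10 Hoxb genes, none of 8 Hoxc genes and 3 of 6 Hoxd genes. Olfactory receptor genes, which marrow is not known to use, passed the same filter for 29 of 337 measured (8.61%), against 20 of 33 Hox genes (60.6%). Over all genes measured the share was 70.0%, so Hox genes passed less often than the background. A mean of 6.36, which few olfactory receptor genes exceeded, was exceeded by 16 Hox genes. The highest olfactory receptor mean was 7.70, and 1 Hox gene lay above it. Passing the filter thus does not by itself show that a Hox gene was in use. The 8 Hoxc genes had means of 4.93 to 5.86, and no Hoxc value on any array exceeded 6.58. Besides the Hoxc genes, Hoxa11, Hoxb2, Hoxd3, Hoxd9 and Hoxd13 lay under the filter, so no test was made for them. Just inside the filter was Hoxb8 at 6.01, and just outside it was Hoxa11 at 5.93. Probes differ in affinity, so these means do not rank the genes by amount of RNA.

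**Figure D1:**
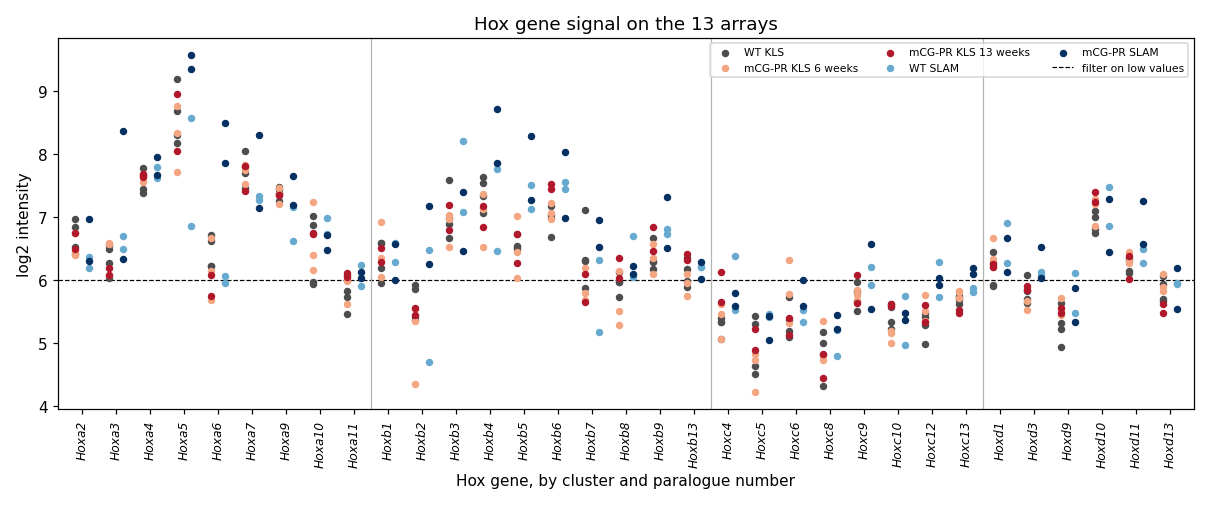
Log2 intensity of the 33 measured Hox genes (x axis, by cluster and paralogue number) on each of the 13 arrays (points; KLS left and SLAM right of each gene's position), with the filter on low values as a dashed line. The 8 Hoxc genes sit mostly under the line, and the points of Hoxa6, Hoxa5, Hoxb4 and Hoxb7 spread widely among SLAM arrays.

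Sorted population was the first comparison, SLAM against KLS over both genotypes. It gave the only Hox genes that passed the test at an adjusted p of 0.05: Hoxb5 and Hoxa6, both higher in SLAM cells. That is 2 of 20 Hox genes, against 16.6% of all genes tested (168 higher and 1592 lower), and a share of this size is no more than the background. In direction, 15 of the 20 Hox genes were higher in SLAM cells, against 40.6% of all genes. The median log2 difference of the 20 was 0.22, against -0.11 over all genes. Centring each array on its median moved the median of all genes to 0.01, the Hox median to 0.34 and the count to 17 of 20. The Hox median was 0.11, with 14 of 20 higher, without mCG-PR SLAM replicate 2 and 0.14 without WT SLAM replicate 2. With no filter, 27 of 33 measured Hox genes were higher, so Hox genes of low signal shared the direction. The Hox median was then 0.29, against 0.005 over all genes. With a filter at the 50th percentile, 6 of 9 Hox genes were higher and the median of all genes was -0.21. The background thus depended on how many genes of low signal it held. Hoxb8, among the genes higher in SLAM cells, averaged 5.90 over KLS and 6.26 over SLAM arrays. It thus passed the filter only through its SLAM arrays. Quantile normalisation moved the split of all calls to 272 higher and 1070 lower. At an unadjusted p of 0.05, 4 Hox genes passed, against 28.9% of all genes.

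Hoxb5, a gene used as a reporter of long-term stem cells, read 6.53, 6.72, 6.54 and 6.49 in WT KLS cells. It read 7.01, 6.45 and 6.04 in mCG-PR KLS cells of 6 weeks and 6.27 and 6.73 in those of 13 weeks. In SLAM cells it read 7.50 and 7.13 in WT and 7.26 and 8.28 in mCG-PR mice. All 4 SLAM arrays lay above all 9 KLS arrays, a separation upward that 1.56% of all genes showed; 9.53% were separated downward. The difference was 1.01 ± 0.26 on the log2 scale (SE; 4 against 9 arrays), a 2.01-fold higher level, with a limma adjusted p of 0.0160; relative to the median of all genes it was 1.11. Each of its 5 probe sets was higher in SLAM cells, by 0.53 to 2.38, and on 2 of them the populations did not overlap. Here and below, probe sets of a gene share a transcript and are not replicates. The share of all probe sets without overlap was not counted. Hoxb5 was 1 of the 6 tested long-term stem cell markers, and all 6 were higher in SLAM cells. Of them 5 passed the test (Vwf, Procr, Fgd5, Ctnnal1 and Hoxb5 itself), beside 168 of all 10586 genes that passed as higher. The call was lost without mCG-PR SLAM replicate 2 (0.75, adjusted p = 0.135) and without WT SLAM replicate 1 (0.91, adjusted p = 0.0826). The SLAM mice were 6 to 7 weeks old and the WT KLS mice 12 to 13 weeks, and the part of age was not tested. Between the mCG-PR groups, in the same fit of all 13 arrays, Hoxb5 was higher in SLAM cells by 1.27 (limma adjusted p = 0.0400). That contrast averaged KLS mice of 6 and 13 weeks, so it did not match age. The Y-linked genes Eif2s3y and Kdm5d averaged 4.28 and 4.23 on its SLAM arrays. On its KLS arrays they averaged 4.53 on replicate 3 of 6 weeks and 7.67 to 8.46 on the others.

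At the level of single probe sets, 1 of 127 Hox probe sets tested passed, against 5.52% of all probe sets (8050 of 145878). It was the Hoxb5 probe set 5541850, higher in SLAM cells by 2.38 ± 0.51 (SE; limma adjusted p = 0.0174). This probe set read 10.40 and 7.47 in WT SLAM cells and 9.73 and 8.48 in mCG-PR SLAM cells, and 6.04 to 7.33 over the 9 KLS arrays.

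Hoxa6, of the same cluster neighbourhood as Hoxa5 and known to promote growth of blood progenitors, showed another pattern. It read 6.62, 6.21, 6.23 and 6.72 in WT KLS cells, 6.14, 5.69 and 6.67 in mCG-PR KLS cells of 6 weeks, and 6.09 and 5.75 in those of 13 weeks. It read 5.95 and 6.06 in WT SLAM cells and 8.48 and 7.86 in mCG-PR SLAM cells. WT SLAM cells thus lay inside the KLS range and only the 2 mCG-PR SLAM arrays lay above it. The difference between populations was 0.84 ± 0.26 (SE, limma adjusted p = 0.0397) over both genotypes and -0.44 ± 0.37 (adjusted p = 0.604) in WT mice. Between the mCG-PR groups, in the same fit of all 13 arrays, it was 2.13 (adjusted p = 0.00316). The call over both genotypes was lost with the mean in place of the median of probe sets (0.54, adjusted p = 0.105) and without either of the probe sets 4658186 (0.32, adjusted p = 0.438) and 4876660 (0.33, adjusted p = 0.390); 2 of its 3 probe sets were higher. Over all arrays left out in turn its adjusted p ran from 0.015 to 0.210. It was lost without each of WT KLS replicates 2 and 3, mCG-PR KLS 6 weeks replicate 1, mCG-PR KLS 13 weeks replicate 2, and every SLAM array.

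The remaining Hox genes did not pass between populations. Hoxa3 differed by 0.67 ± 0.28 (SE; limma adjusted p = 0.131); its mCG-PR SLAM replicate 1 read 8.36, against 6.33 in replicate 2, 6.49 and 6.69 in WT SLAM and 6.03 to 6.58 in KLS cells. A single array thus stood apart for this gene. Without that array the difference was 0.16 (adjusted p = 0.765). Without its partner, replicate 2, Hoxa3 passed (1.17, adjusted p = 0.0110), and with the mean of probe sets it passed too (0.69, adjusted p = 0.0219). Hoxd11 differed by 0.40 ± 0.18 (adjusted p = 0.160), and its SLAM range of 6.27 to 7.25 overlapped the KLS range of 6.01 to 6.44. Among the 8 tested Hoxa genes the median difference was 0.13, with 5 higher in SLAM cells. Among the 9 Hoxb genes it was 0.33, with 8 higher, and Hoxb1 at -0.01 was the exception.

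Within WT mice, SLAM against KLS, no Hox gene passed the limma test, nor did any reach an unadjusted p of 0.05; 3.12% of all genes passed (330) and 17.7% reached the unadjusted level. Hoxa9, a factor that stem cells need for repopulation, read 6.61 and 7.16 in WT SLAM cells and 7.45, 7.47, 7.37 and 7.26 in WT KLS cells. Both SLAM arrays were lower, with a log2 difference of -0.50 ± 0.24 (SE; adjusted p = 0.298), and 5 of its 7 probe sets were lower. Hoxb5 was higher in WT SLAM cells by 0.74 ± 0.37 (adjusted p = 0.317), on all 5 probe sets. With the mean of probe sets this difference was 1.08 and passed (adjusted p = 0.0203). Hoxb6, whose forced expression expands stem cells, read 7.44 and 7.55 in WT SLAM cells and 6.98, 6.68, 7.18 and 7.04 in WT KLS cells, a difference of 0.53 ± 0.29 (adjusted p = 0.365). The arrays of the 2 groups did not overlap for 3 Hox genes that were higher in SLAM cells (Hoxb5, Hoxb6 and Hoxb9) and 4 that were lower (Hoxa2, Hoxa6, Hoxa7 and Hoxa9), that is, 3 and 4 of 20 against 12.9% and 22.3% of all genes. By cluster, the median difference was -0.42 for the Hoxa genes and 0.41 for the Hoxb genes.

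**Figure D2:**
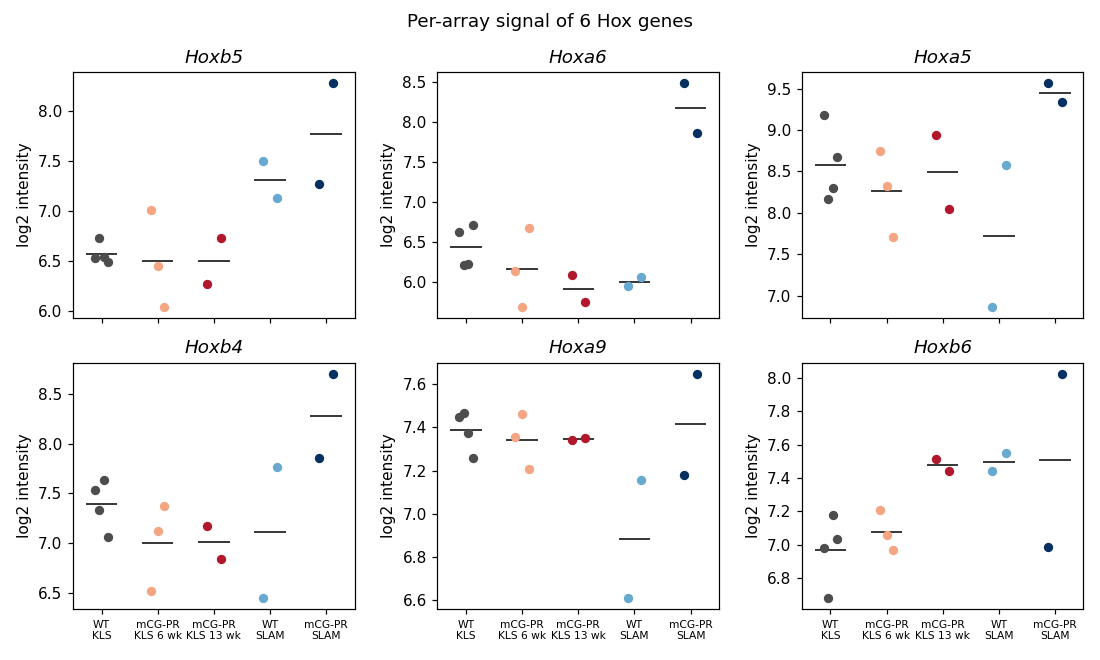
Log2 intensity of Hoxb5, Hoxa6, Hoxa5, Hoxb4, Hoxa9 and Hoxb6 by group; each point is 1 array (1 mouse) and each bar the group mean, and the y axes differ between genes. The 4 SLAM points of Hoxb5 lie above its 9 KLS points, while for Hoxa6 only the mCG-PR SLAM points, 8.48 and 7.86, do.

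The mCG-PR and WT SLAM cells were compared over 2 arrays of each genotype. Both mCG-PR SLAM mice were older than both WT SLAM mice, so here too genotype and age cannot be told apart. No gene of the 10586 passed the limma test (0%); 6.27% had an unadjusted p under 0.05, as did 2 of the 20 Hox genes, Hoxa6 and Hoxa5. In direction, 13 of 20 Hox genes were higher in mCG-PR cells, against 47.7% of all genes. The Hox median difference was 0.25, against -0.02 over all genes. Without mCG-PR SLAM replicate 2 the Hox median was 0.02, with 10 of 20 higher. Arrays did not overlap for 6 Hox genes that were higher in mCG-PR cells (Hoxa5, Hoxa6, Hoxa9, Hoxb4, Hoxb7 and Hoxd11), against 16.4% of all genes. They did not overlap for 1 that was lower (Hoxa10), against 18.8% of all genes.

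Hoxa6 read 8.48 and 7.86 in mCG-PR and 5.95 and 6.06 in WT SLAM cells, a difference of 2.17 ± 0.33 (SE; 2 against 2 arrays), a 4.49-fold higher level in mCG-PR SLAM cells, with an adjusted p of 0.730 in limma. All 3 of its probe sets were higher, by 0.68 to 2.43, with no overlap on any of them. With 2 against 2 arrays, 16.4% of all genes were higher without overlap, and the share of all probe sets was not counted. Leaving out single probe sets took the difference to between 0.70 and 1.57. With the mean of probe sets it was 1.27, and the same setting took Hoxa5 to 0.72 and Hoxb4 to 0.57. In a fit of all 13 arrays without weights, Hoxa6 passed (adjusted p = 0.00702); over the other alternatives its adjusted p reached 0.819.

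Hoxa5, which favours myeloid over erythroid fate when overexpressed, read 9.57 and 9.33 in mCG-PR SLAM cells and 6.86 and 8.57 in WT SLAM cells. The WT arrays were far apart, and both lay below the mCG-PR arrays. The difference was 1.73 ± 0.59 (SE; limma adjusted p = 0.784), and 4 of 5 probe sets were higher. In KLS cells Hoxa5 ran from 7.71 to 9.18 with a median over 9 arrays of 8.32, so that WT SLAM replicate 1 was the lowest array of all. Without that array the difference was 0.88, and leaving out single probe sets took it to between 0.77 and 1.25.

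Hoxb4, known for expanding stem cells when overexpressed, read 7.86 and 8.70 in mCG-PR SLAM cells against 6.45 and 7.76 in WT SLAM cells. The difference was 1.17 ± 0.55 (limma adjusted p = 0.807), and 3 of 5 probe sets were higher. It was 0.52 without WT SLAM replicate 1, 0.75 without mCG-PR SLAM replicate 2 and 1.83 without WT SLAM replicate 2. Hoxb7 read 6.52 and 6.94 against 6.32 and 5.18, a difference of 0.98 ± 0.46 (adjusted p = 0.807). Hoxa9 read 7.18 and 7.65 against 6.61 and 7.16, a difference of 0.53 ± 0.35 (adjusted p = 0.884), with all 7 probe sets higher. Its groups nearly met, at 7.18 in mCG-PR and 7.16 in WT cells. Hoxd11 read 6.57 and 7.25 against 6.27 and 6.50. Hoxa10 read 6.47 and 6.71 against 6.73 and 6.98, a difference of -0.26 ± 0.29 (adjusted p = 0.935).

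Other features of the SLAM arrays moved with genotype. The Y-linked genes Eif2s3y and Kdm5d averaged 4.28 and 4.23 on the mCG-PR SLAM arrays, 4.53 on mCG-PR KLS 6 weeks replicate 3 and 7.67 to 8.48 on the other arrays, so that in SLAM cells this difference and genotype cannot be told apart. The 9 granulocyte markers averaged 8.55 and 10.01 in WT SLAM cells, 7.96 and 7.35 in mCG-PR SLAM cells and 8.73 to 9.83 in KLS cells; all 9 were lower in mCG-PR SLAM cells, and their part in the Hox differences was not tested.

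**Figure D3:**
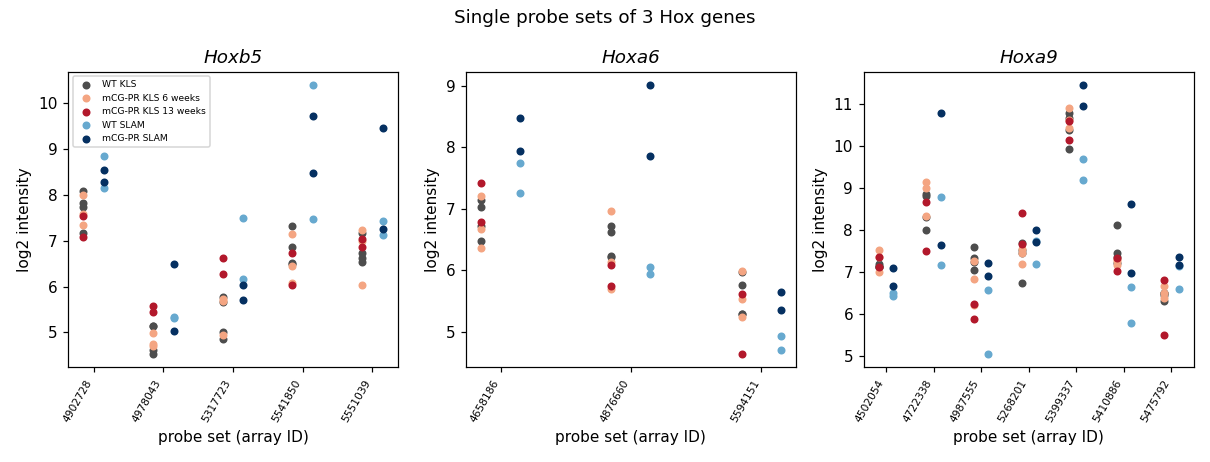
Log2 intensity of each probe set of Hoxb5, Hoxa6 and Hoxa9 (x axis, array identifiers) on the 13 arrays, coloured by group, with KLS left and SLAM right. The SLAM points of Hoxb5 probe set 5541850 lie at 7.47 to 10.40, above all its KLS points, and Hoxa6 probe set 4876660 separates mCG-PR SLAM (9.01 and 7.86) from WT SLAM (5.95 and 6.06).

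Between mCG-PR and WT KLS cells no Hox gene passed the test. The comparisons at 6 and 13 weeks share the same 4 WT arrays. All of these WT mice were older than the mCG-PR mice of 6 weeks, so at 6 weeks genotype and age cannot be told apart. The Y-linked genes averaged 4.53 on replicate 3 of 6 weeks, against 8.46 and 8.38 on the other arrays of that group. At 6 weeks, 0.0378% of all genes passed the limma test (4 genes); no Hox gene passed and none had an unadjusted p under 0.05, against 12.6% of all genes. No Hox gene's arrays lay wholly outside the WT range, against 9.45% of all genes wholly higher and 1.54% wholly lower. The median Hox difference was -0.05, against 0.11 over all genes. Higher in mCG-PR cells were 8 of 20 Hox genes, against 71.7% of all genes. Hoxb7 read 5.68, 5.79 and 6.18 at 6 weeks and 7.10, 6.30, 6.31 and 5.88 in WT cells, a difference of -0.51 ± 0.24 (SE; adjusted p = 0.397). Hoxb4 read 6.52, 7.12 and 7.37 against 7.53, 7.34, 7.64 and 7.06, a difference of -0.39 ± 0.21 (adjusted p = 0.448). Hoxb8, whose forced expression immortalises myeloid progenitors, read 6.14, 5.50 and 5.29 against 5.98, 6.12, 5.73 and 5.97, a difference of -0.31 ± 0.19 (adjusted p = 0.523). All 3 overlapped with WT cells, and with the mean of probe sets the Hoxb8 difference turned to 0.12. Hoxb8 averaged 5.90 over the KLS arrays, under the filter, and was tested only through its SLAM arrays.

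At 13 weeks, 0.00945% of all genes passed (1 gene) and no Hox gene did; 3 Hox genes had an unadjusted p under 0.05, against 13.5% of all genes. Hoxb6 read 7.51 and 7.44, above the WT range of 6.68 to 7.18, higher by 0.51 ± 0.17 (SE; limma adjusted p = 0.250). Hoxd10 read 7.40 and 7.23, above the WT values of 6.81, 6.99, 6.74 and 7.10, higher by 0.40 ± 0.18 (adjusted p = 0.346). Hoxa6, at 6.09 and 5.75, lay below all 4 WT arrays, a difference of -0.53 ± 0.25 (adjusted p = 0.369). Those 2 higher and 1 lower genes of 20 stand against 14.8% and 10.2% of all genes.

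Over both ages, 0.132% of all genes passed (14 genes) and no Hox gene did, while 3 Hox genes had an unadjusted p under 0.05, against 13.5% of all genes. This comparison included the mCG-PR mice that were younger than their controls, and the part of age was not tested. Hoxb7 differed by -0.52 ± 0.21 (SE; limma adjusted p = 0.314), Hoxb6 by 0.31 ± 0.13 (adjusted p = 0.341) and Hoxd10 by 0.30 ± 0.14 (adjusted p = 0.358). The Hoxb7 difference depended on which controls were used. Against the WT mice of 13 weeks alone it was -0.83, and against those of 12 weeks alone -0.22; with the mean of probe sets it was -0.03. Hoxa10, of the same cluster as Hoxa9, also split the controls: it read 5.97 and 5.93 in the WT mice of 13 weeks and 6.86 and 7.01 in those of 12 weeks. Its mCG-PR difference was 0.72 against the former, -0.27 against the latter and 0.23 ± 0.26 against all 4 (adjusted p = 0.725). Hoxa9 in KLS cells ran only from 7.21 to 7.47 over 9 arrays, and its difference over both ages was -0.04 ± 0.12.

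Between mCG-PR KLS cells of 13 and 6 weeks, 0.00945% of all genes passed (1 gene) and no Hox gene did; 3 Hox genes had an unadjusted p under 0.05, against 12.1% of all genes. Hoxb8 read 6.14, 5.50 and 5.29 at 6 weeks and 6.03 and 6.36 at 13 weeks, a difference of 0.55 ± 0.23 (SE, limma adjusted p = 0.367) with overlap. Its mean over all KLS arrays, 5.90, was under the filter. Hoxb13 read 5.75, 6.10 and 5.95 at 6 weeks and 6.32 and 6.41 at 13 weeks, a difference of 0.43 ± 0.18 (adjusted p = 0.370). Its mean at 6 weeks, 5.93, was also under the filter. Hoxb6 read 7.21, 7.06 and 6.97 at 6 weeks, below its values at 13 weeks, a difference of 0.40 ± 0.18 (adjusted p = 0.394). These last 2, both higher without overlap, are 2 of 20 Hox genes, against 10.7% of all genes; 0 Hox genes were lower without overlap, against 20.1%.

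**Figure D4:**
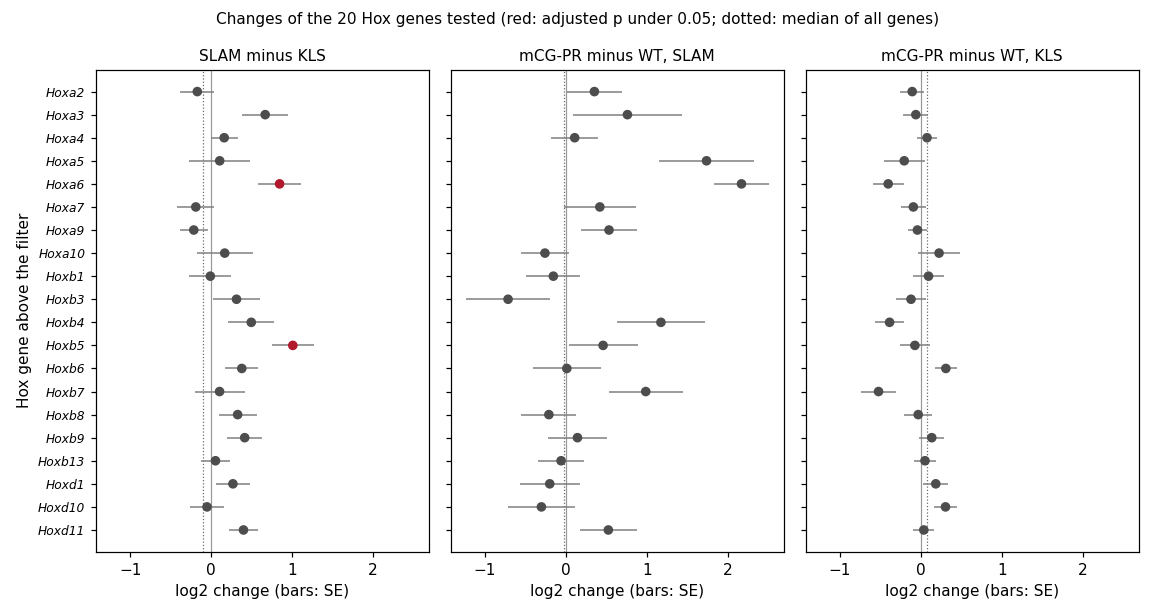
Log2 change with its SE for the 20 Hox genes tested, in SLAM minus KLS, mCG-PR minus WT in SLAM cells and mCG-PR minus WT in KLS cells over both ages; red marks an adjusted p under 0.05 and the dotted line the median of all genes. Hoxb5 and Hoxa6 are red in the first panel, Hoxa6 lies farthest right in the second at 2.17, and the changes of the third panel lie between -0.52 and 0.31.

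Whether the genotype difference varied between the 2 populations was tested as the difference in SLAM cells minus that in KLS cells. In the SLAM part the mCG-PR mice were older than their controls. The KLS part included mCG-PR mice younger than their controls, and the part of age was not tested in either. No gene passed in limma (0%), and 7.9% of all genes had an unadjusted p under 0.05, as did 4 of the 20 Hox genes. These were Hoxa6 (2.57 ± 0.53, SE; adjusted p = 0.238), Hoxb4 (1.56 ± 0.57; adjusted p = 0.491), Hoxa5 (1.94 ± 0.76; adjusted p = 0.545) and Hoxb7 (1.51 ± 0.62; adjusted p = 0.567). For all 4 the difference between genotypes was upward in SLAM cells and downward in KLS cells. Without weights for the wider spread of SLAM arrays, Hoxa6 passed (adjusted p = 0.0136).

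The partners and regulators of Hox proteins were read from lists of related genes. In these lists, a gene is said to rise or fall only where it passed the test. Of the TALE cofactors, which bind DNA together with Hox proteins, 9 of 11 were measured and 7 tested; between SLAM and KLS cells none rose and 1 fell, Tgif1 (-0.80 ± 0.25, SE; limma adjusted p = 0.0428), and the list's median was -0.02 against -0.11 over all genes. That is 1 of 7, against 16.6% of all genes, most of which were lower in SLAM cells. Meis1 differed between populations by less than its error (0.03 ± 0.20; adjusted p = 0.949). In KLS cells Meis1 read 10.68, 10.55, 10.34 and 10.73 in WT mice, a mean of 10.24 ± 0.30 (SD, n = 3) in mCG-PR mice of 6 weeks, and 9.70 and 9.92 in those of 13 weeks. Over both ages the difference was -0.55 ± 0.15 (adjusted p = 0.151), and both arrays of 13 weeks lay below every WT array.

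Of the Hox activators of the trithorax and Cdx groups, 15 of 19 were tested; 1 rose in SLAM cells and 3 fell, beside the 16.6% of all genes that passed, with a median of -0.13 against -0.11 over all genes. Mllt3, a super elongation complex subunit fused to Kmt2a in leukaemia, rose by 1.03 ± 0.19 (SE; limma adjusted p = 0.00196). Psip1, the chromatin tether of Kmt2a and Men1, fell by 0.96 ± 0.18 (adjusted p = 0.00280). Rbbp5, a core subunit of the methyltransferase complexes, and Kansl1 fell by 0.73 and 0.52. Of the Polycomb group, 15 of 18 were tested; 1 rose and 2 fell, a share near those 16.6%, with a median of 0.05. Ezh2, the methyltransferase of Polycomb repressive complex 2, fell by 1.45 ± 0.21 (adjusted p = 0.000521), and its partner Suz12 fell by 0.66 ± 0.16 (adjusted p = 0.00993). Cbx8, a chromodomain subunit, rose by 0.76 ± 0.24 (adjusted p = 0.0407). Cbx8 read 8.58 and 8.25 in mCG-PR SLAM cells, 6.68 and 6.56 in WT SLAM cells and 6.38 to 7.17 over the KLS arrays. Only the mCG-PR SLAM arrays stood above the rest, and that genotype difference was 1.80 ± 0.29 (adjusted p = 0.730).

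Of 12 genes reported as targets of Hoxa9 and Meis1, 11 were tested; none rose in SLAM cells and 3 fell, beside 16.6% of all genes, with a median of -0.35 against -0.11 over all genes. Flt3 fell by 2.42 ± 0.18 (SE; limma adjusted p = 1.77e-06) and Cd34 fell by 2.35 ± 0.28 (adjusted p = 0.000117); both also mark the more mature progenitors that the SLAM sort leaves out. Myb fell by 0.57 ± 0.18 (adjusted p = 0.0454). Within WT mice, Flt3, Cd34 and Psip1 were the members of these 4 lists that passed. No member of these lists passed between genotypes, in KLS cells at either age or in SLAM cells.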

How the data were processed

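Bone marrow of individual mice was sorted into KLS or SLAM cells and 1 array was run per mouse. The authors deposited 1 linear intensity value per probe set, for 229581 probe sets; RMA and the mm9 build are named in the submitters' processing notes, without versions or settings. RMA, as usually run, makes arrays comparable by background correction and quantile scaling, and linear values ran from 2.34 to 21748. The log2 scale was taken from the deposited values here, with no further scaling. Probe sets annotated to exactly 1 gene (208397) were kept, and a gene's value was the median of its probe sets, of which at least 3 were required (median 11 per gene). Genes under the 30th percentile of mean log2 value were not tested.

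Tests were two-sided in limma 3.58.1 (R 4.3.3), with Benjamini-Hochberg adjustment over all genes tested and a threshold of 0.05. KLS comparisons used the 9 KLS arrays and the SLAM genotype comparison the 4 SLAM arrays. Comparisons across populations used all 13 arrays, weighted by population, because SLAM arrays spread more. Scripts were tested on simulated data. Per-array values are given for every Hox gene that passed and, in comparisons where fewer than 5 passed, for the 3 with the smallest unadjusted p; a few others were added after their values were seen (Hoxa9, Hoxa10, Hoxd11 and Cbx8 among them). The Hox members and gene lists were chosen with earlier results of these data known. Alternatives comparing only the mCG-PR groups, within the fit of all 13 arrays, were chosen after seeing the data. So were those leaving out single probe sets or refitting the probe sets. Promoter sequences came from RefSeq tables.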

Additional observations from a re-analysis of the deposited data

How the results depend on the processing

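Both Hox genes that passed between SLAM and KLS cells passed under every other scaling, weighting, filter and block tried with all arrays, except that Hoxa6 did not pass with the mean of probe sets and was below a filter at the 50th percentile, which left 1 gene passing. Leaving out each array in turn gave 0 to 2 Hox genes. Without weights by population, 1 Hox gene, Hoxa6, passed in the test between genotype effects and 13 Hox probe sets passed between populations, against 1 with weights; leaving out arrays gave 1 to 2 probe sets. A single fit of all 13 arrays without weights called 1 Hox gene between genotypes in SLAM cells, and the mean of probe sets called 1 between populations in WT mice. Same-numbered samples did not deviate together (correlations of -0.07 to 0.08 over 21 pairs). In groups of 2 arrays the deviations mirror each other, so these pairs are not independent and the check cannot exclude that numbers pair mice. With the replicate number as a block, Hoxb5 differed between populations by 0.90 (limma adjusted p = 0.0479). With that block 0 Hox probe sets passed and no Hox gene changed its call. Of the single-gene values under alternatives, 2447 kept their call, and either kept their direction or changed it by less than the gene's SD within groups. Another 34 changed direction by more than that SD, 13 no longer passed and 6 newly passed. Over alternatives other than single arrays left out, 1027 to 2908 genes passed between populations, the lowest when only mCG-PR groups were compared. Within WT mice 189 to 1229 passed, between genotypes in SLAM cells 0 to 275, and between genotype effects 0 to 90. In KLS cells 0 to 25 passed at 6 weeks, 0 to 10 at 13 weeks and 0 to 39 over both ages. Those highest KLS counts came from fits with only the WT mice of 13 weeks as controls. With all arrays in the fit, the highest were 11, 2 and 22. Leaving out arrays gave 94 to 334 genes within WT mice, lowest without WT SLAM replicate 1 (94) and replicate 2 (98), and 1063 to 1811 between populations. Without WT KLS replicate 3, 43 genes passed at 6 weeks, 14 at 13 weeks and 49 over both ages. Pairs of SLAM arrays limit what could be detected between genotypes.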

Other observations

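Some Hox signal lay outside the genes tested, and was picked out after its values were seen. Hoxb2, under the filter, ran from 4.35 to 5.93 over the 9 KLS arrays but read 6.47 and 4.70 in WT SLAM cells and 6.25 and 7.17 in mCG-PR SLAM cells, so that 3 of the 4 SLAM arrays lay above every KLS array. The probe set shared by Hoxa3 and 2700086A05Rik read 8.82 and 9.29 in WT SLAM cells and 9.75 and 6.08 in mCG-PR SLAM cells, against 4.72 to 7.56 in KLS cells; it cannot be given to either gene. The 13 probe sets shared by Hoxd3 and Hoxd4 had medians of 5.21 to 6.30 over the arrays.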
